A study of Mus musculus with 8 samples.

Results

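The potassium channel genes are the mouse genes whose symbol begins with Kcn, and they were followed here through 2 hours of low oxygen in the hypothalamus. Members were the protein-coding genes of the count table with such a symbol. Kcnj8 and Kcnj11, which encode the pores of ATP-sensitive channels, were left out. This gave 92 genes of 55487 in the table, spread over 19 subfamily letters, and 78 of them had enough counts to be tested. The 8 libraries came from C57BL/6J mice. For 4 libraries, mice were placed in a chamber with 7% oxygen in nitrogen for 2 hours (hypoxia). For the other 4, mice stayed in normal conditions with 21% oxygen (normoxia) and were sampled after the same time. No transgene, deletion or drug was part of either group, and the labels used here give neither age nor pooling of animals. Polyadenylated RNA of the whole dissected hypothalamus was sequenced with a kit that keeps the strand, and the series asks how low oxygen acts on the function of the glucocorticoid receptor.

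Potassium channels let potassium leave the cell along its gradient, which holds the membrane negative and ends action potentials. Voltage-gated (Kv) channels open on depolarization, calcium- and sodium-activated channels open when those ions rise inside, inward rectifiers hold the resting potential and, in astrocytes, take up potassium, and tandem-pore (K2P) channels carry the leak current that acid, stretch, lipids and oxygen tension can modulate. In the hypothalamus these currents set the firing of peptide-secreting and glucose-sensing neurons. Silent Kv subunits form no channel alone but change those they join, and beta, KChIP, Kcne and Kcnmb proteins are auxiliary subunits.

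Libraries held 16994473 to 21694383 counts, and the groups' totals differed by less than their spread (two-sided p = 0.743 by an exact permutation test). Members took 0.469 to 0.478% of counts in hypoxia and 0.446 to 0.541% in normoxia (two-sided exact permutation p = 0.714). All 16 hypothalamic marker genes looked up were detected in every library, with a summed level of 763 to 896 CPM (read counts scaled by TMM to a common library total) in hypoxia and 432 to 926 CPM in normoxia. Of the 16 genes, 14 had a positive change between the groups, with a median log2 change of 0.24, and none was called. The lowest of the summed levels, 432 CPM, was that of normoxia replicate 2. That library also held the highest sum of 12 cortical and hippocampal markers, 1047 CPM against 475 to 621 CPM in the other 7. A value without normoxia replicate 2 therefore stands beside some members. Where none is given, that library may still move the change. Summed neuron markers ran from 6785 to 6880 CPM in hypoxia and from 6033 to 7436 CPM in normoxia. In bulk tissue, fewer cells of a type and less RNA per cell cannot be told apart.

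Levels of different genes were compared as CPM per kilobase of exon, averaged over the 8 libraries. Kcnj10, the main inward rectifier of astrocytes, had the highest level, 91.1 CPM per kilobase, with a range of 77.2 to 107 that did not overlap any other member. Kcnab2, a beta subunit of Kv channels, came next at 40.9 CPM per kilobase (33.1 to 47.7), clear of the gene after it by mean. Its range overlapped those of Kcnj4, Kcnf1 and Kcnip2, whose highest libraries reached 57.0, 38.8 and 37.6. Further down, Kcnc1, a fast delayed rectifier, had 26.7 CPM per kilobase, and Kcnk1, a weak K2P leak channel, had 26.6. The ranges of Kcnc1 and Kcnk1 overlapped, so their order was not resolved by the spread over libraries. Kcnc4, a fast A-type channel, the delayed rectifier Kcna6 and the A-type channel Kcnd2 followed, at 24.6, 24.3 and 22.2 CPM per kilobase, with the KChIP genes Kcnip4 and Kcnip3 at 21.9 and 21.7. The 10 highest genes held 42.9% of the summed level of all members. In all, 28 members had at least 10 CPM per kilobase, 39 had 1 to 10, and 25 had under 1.

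**Figure D1:**
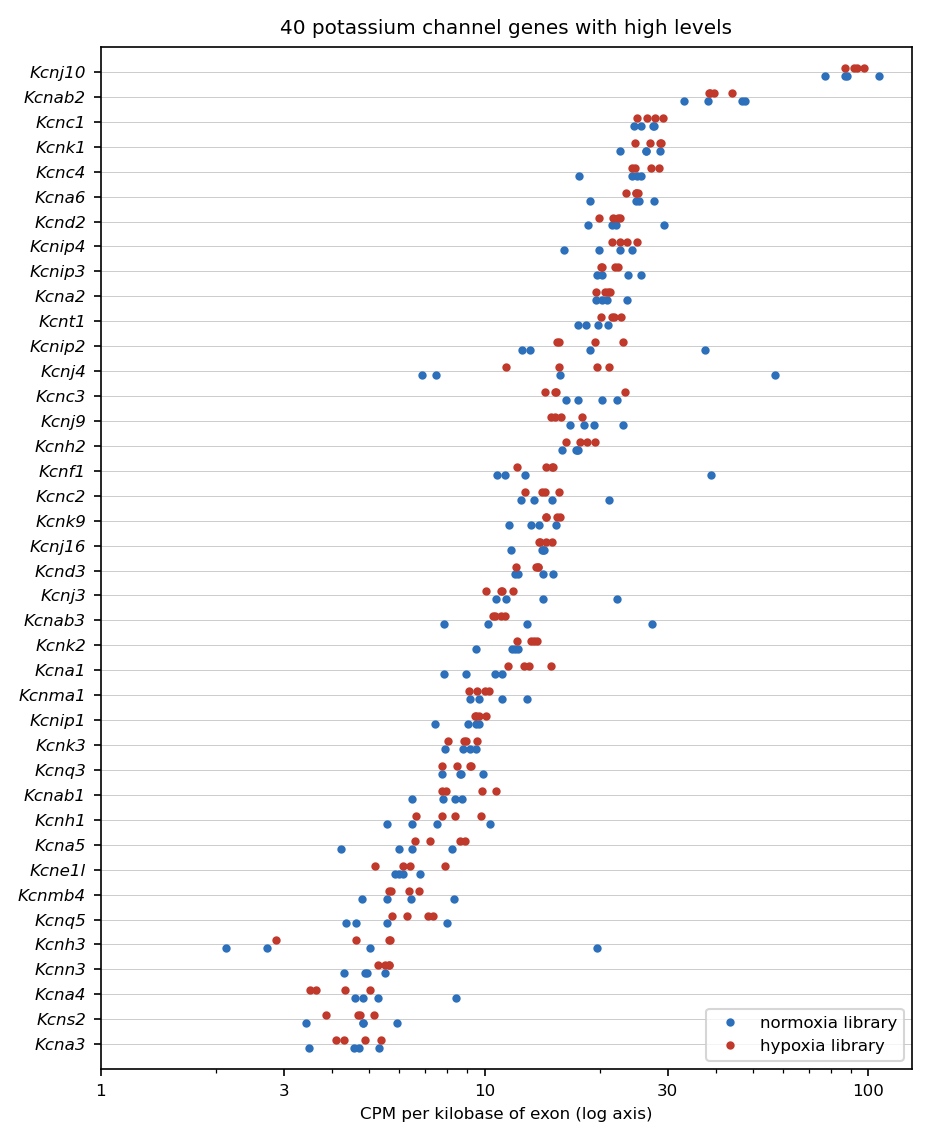
Level of 40 members of high mean level, as CPM per kilobase of exon on a log axis, with 1 point per library (blue normoxia, red hypoxia, 4 each). Kcnj10 lies apart from the rest at 77.2 to 107, and most genes show the red points inside the span of the blue ones.

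The 14 members that were not tested had few counts in most libraries or none. Kcna7 and Kcnmb3 (a pore gene and an auxiliary subunit), the auxiliary subunit gene Kcne1 and the K2P gene Kcnk18 had no count in any library, which allows up to 0.0188 CPM over the 8 libraries (3 counts, counting error only). The other 10 were Kcna10, Kcnq1, Kcne2, Kcne3, Kcnv2, Kcnj1, Kcnj15, Kcnk7, Kcnk15 and Kcnk16, with at most 73 counts over the 8 libraries. Kcnk15, a K2P gene, stood at 2.87 CPM in normoxia replicate 2. Elsewhere it had 0 to 0.193 CPM, where 3 counts correspond to 0.138 to 0.177 CPM in single libraries.

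After 2 hours at 7% oxygen, 1 potassium channel gene of the 78 tested was called: Kcnk6 was higher, and no member was called lower. This is 1.28% of the members tested, where 2.15% of all 17047 genes were called, 0.915% higher and 1.23% lower (edgeR quasi-likelihood F test, with p adjusted by Benjamini-Hochberg over every gene tested and a threshold of 0.05). The median log2 change of the members was 0.01, beside −0.01 for all genes tested, and 40 members had a positive and 38 a negative value. With libraries scaled by total count alone, the members' median was −0.02 and that of all genes −0.03. In 3 members (3.85%) the 4 hypoxia libraries did not overlap the 4 normoxia libraries: Kcnk6 and Kcna1 lay higher and Kcng4 lower. Among all genes 13.4% had no such overlap, 5.69% higher and 7.75% lower. Without adjustment, 10 members (12.8%) had p under 0.05, beside 19.3% of all genes. The members' share was below that of all genes in these counts taken in either direction and above it for calls in the higher direction, which is 1 gene; no such difference was tested.

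How far the absence of calls can be read depends on the intervals. The 95% interval of the log2 change lay within ±1 in 67 of the 78 members (85.9%, beside 88.1% of all genes) and within ±0.5 in 39 (50%, beside 61.2%). The median distance from the value to the end of its interval was 0.34. A change of 2-fold is thus outside the interval for most members. Among the 28 tested members at 10 CPM per kilobase or more, the largest change was 0.43 on the log2 scale, that of Kcna1, and 25 intervals lay within ±1. In all 78, the log2 change ran from −1.09 (Kcnn4) to 0.98 (Kcng3), both genes of about 1 CPM or less in most libraries; 49 members lay within 0.2 of no change and 7 had 0.5 or more in either direction.

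**Figure D2:**
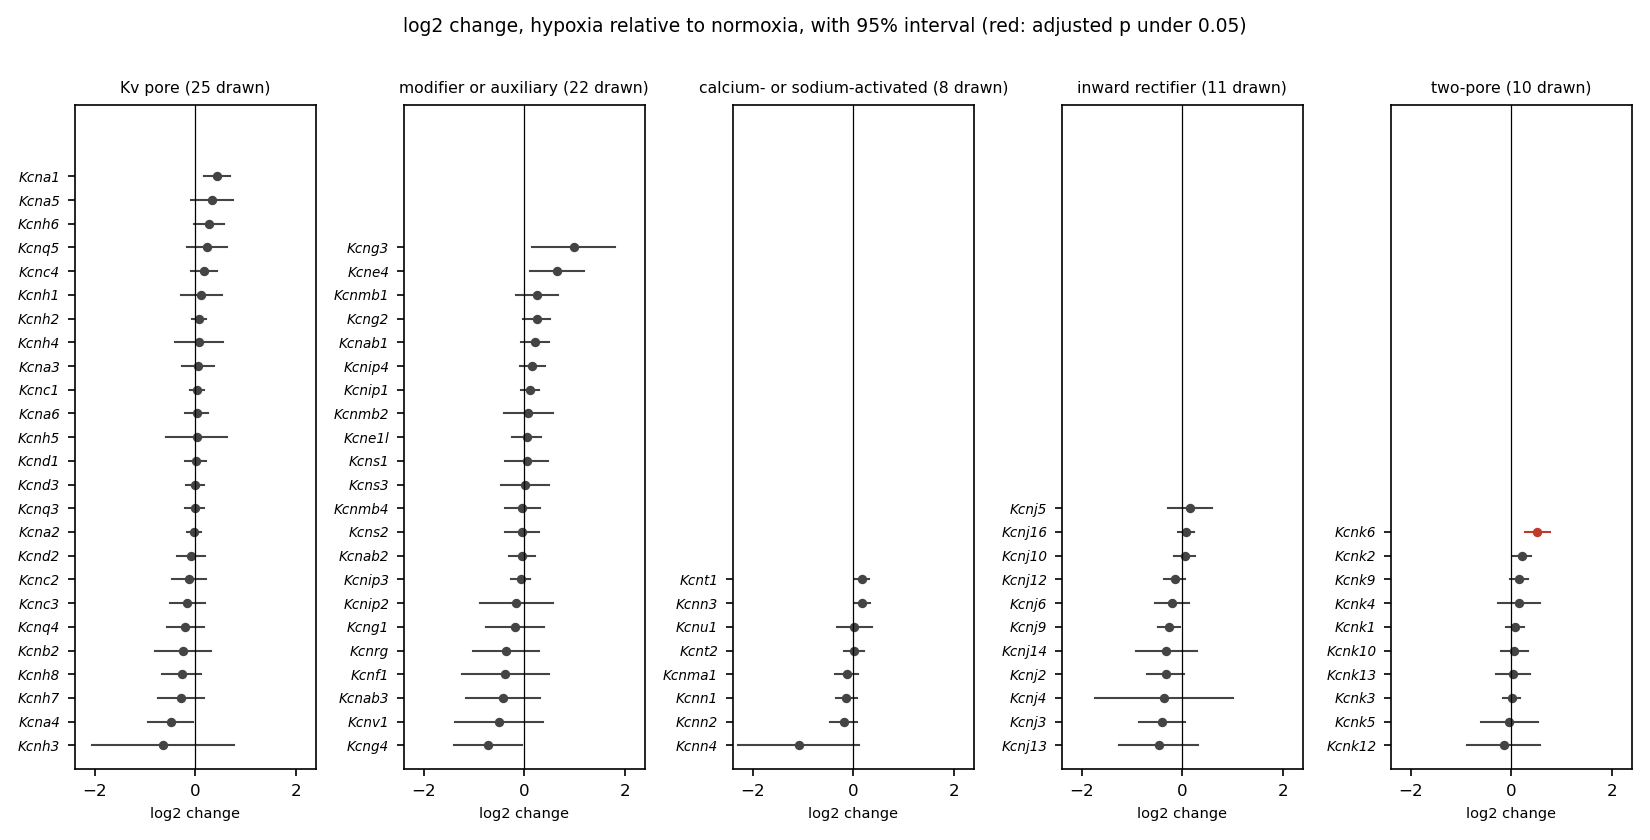
log2 change of 76 of the 78 tested members, hypoxia relative to normoxia, with its 95% interval, in 5 panels by role (the K2P genes are in the panel titled two-pore). Kcnk6, in red, is the 1 member with an adjusted p under 0.05, and most points lie close to the line at 0.

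Among the K2P leak channels, Kcnk6 (ENSMUSG00000046410; mm10 chromosome 7, 29221926 to 29232515, minus strand) rose. Its product is a weakly conducting leak channel. Kcnk6 stood at 5.08, 5.17, 5.12 and 5.44 CPM in hypoxia replicates 1 to 4 and at 3.48, 3.83, 3.39 and 3.81 CPM in normoxia replicates 1 to 4. Every hypoxia library lay above every normoxia library, with means of 5.20 ± 0.163 and 3.63 ± 0.227 CPM (SD, n = 4 each). These values rest on 97 to 109 counts per library in hypoxia and 59 to 84 in normoxia. With so few counts, how even the replicates are is uncertain. The log2 change was 0.52 ± 0.11 (SE; 95% interval 0.28 to 0.76), with an adjusted p of 0.0455 by edgeR's quasi-likelihood test. The call is close to its threshold: with each library left out in turn the log2 change stayed between 0.49 and 0.55, the adjusted p ran from 0.0391 to 0.147, and the gene was called in 1 of the 8 fits, that without normoxia replicate 2. Kcnk6 is expressed at a low level. The summed microglial markers (10 genes, 4 with a positive change) were 328 to 366 CPM in hypoxia and 311 to 376 in normoxia. The 10 endothelial ones (4 with a positive change, 1 called higher and 1 lower) were 412 to 501 and 386 to 448 CPM. The part of these cells in the result was not tested. The exons of Kcnk6 overlap no other gene in the annotation used.

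The other K2P genes tested had smaller or less even changes. Kcnk2, a leak channel opened by stretch and lipids, stood at 60.1, 66.5, 67.7 and 65.3 CPM in hypoxia and at 47.1, 60.5, 58.5 and 59.3 CPM in normoxia. The groups overlapped only through hypoxia replicate 1, and the log2 change was 0.20 ± 0.08 (SE; edgeR adjusted p = 0.213), or 0.13 without normoxia replicate 1. Kcnk9, an acid-sensitive leak channel, had 194, 177, 190 and 178 CPM against 163, 142, 188 and 170 CPM, with a log2 change of 0.16 (95% interval −0.02 to 0.33), or 0.09 without normoxia replicate 2. Kcnk3, the closest relative of Kcnk9 and a channel known for its part in oxygen sensing of carotid body cells, had a log2 change of 0.00 (interval −0.17 to 0.18; chosen for naming after its values were seen), and Kcnk1 had 0.07 (−0.11 to 0.25). Without normoxia replicate 2, Kcnk1 had 0.12. Of the 10 tested K2P genes, 8 had a positive value with all libraries, with a median of 0.06. Without hypoxia replicate 2 the number was 5 (median 0.02), and without hypoxia replicate 3 or 4 it was 9 (medians 0.10 and 0.11). The summed level of the K2P genes was 74.2 ± 3.90 CPM per kilobase (SD, n = 4) in hypoxia against 69.4 ± 1.43 for the normoxia libraries, and the ranges, 69.0 to 78.1 and 67.9 to 71.2, overlapped.

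**Figure D3:**
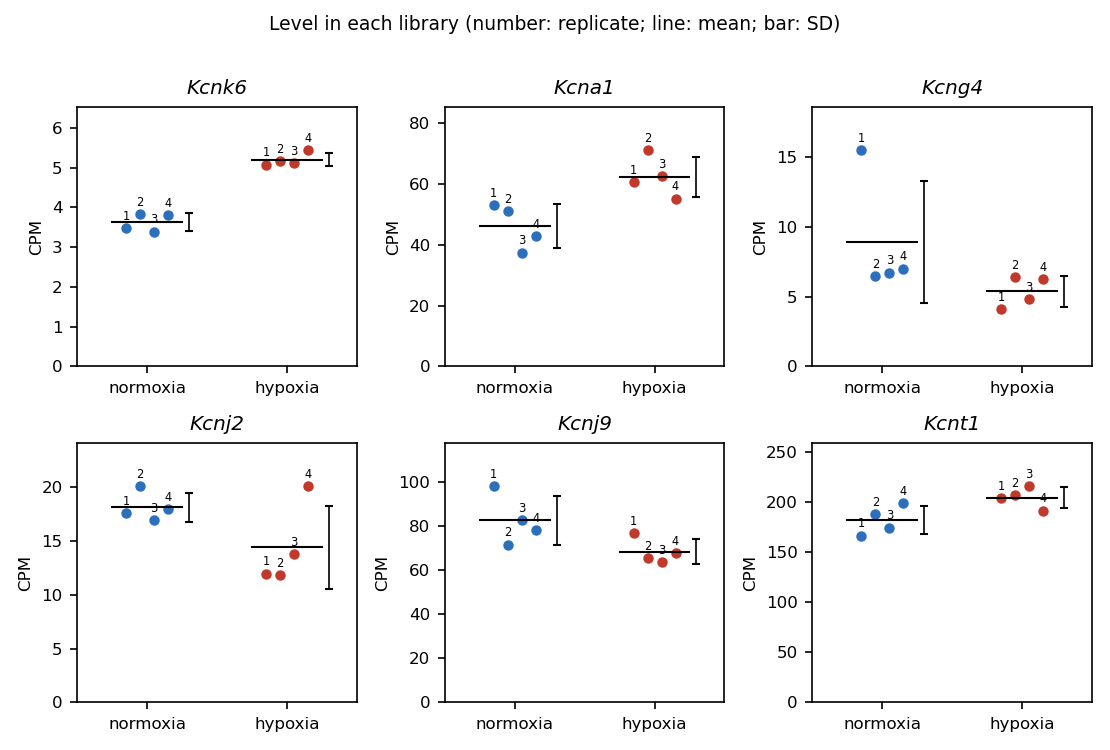
CPM of Kcnk6, Kcna1, Kcng4, Kcnj2, Kcnj9 and Kcnt1 in each library (1 numbered point per replicate, n = 4 per group, with the mean as a line and the SD as a bar; axes start at 0). Kcnk6 and Kcna1 separate the groups upward, and Kcng4 separates them downward by a hair, with 15.5 CPM in normoxia replicate 1.

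None of the 27 tested pore genes of the Kv families was called; 14 had a positive value, 2 had an unadjusted p under 0.05, and the median was 0.01. Their summed level was 296 ± 1.18 CPM per kilobase (SD, n = 4) in hypoxia against 294 ± 24.9 for the normoxia libraries, 38.7% of the total of all members. Kcna1 (ENSMUSG00000047976; mm10 chromosome 6, 126640397 to 126646384, minus strand), the low-threshold axonal channel mutated in episodic ataxia, had the smallest p of the Kv pore genes. Kcna1 stood at 60.4, 71.0, 62.5 and 55.1 CPM in hypoxia and at 53.0, 51.0, 37.4 and 42.9 CPM in normoxia. All hypoxia libraries were above all normoxia libraries, although the lowest of the former and the highest of the latter were close. The log2 change was 0.43 ± 0.12 (SE), with an edgeR adjusted p of 0.0878, short of the threshold. It was 0.35 to 0.51 over the 8 fits that left out 1 library, with an adjusted p from 0.0474 (without normoxia replicate 2) to 0.233 (without hypoxia replicate 3). The adjusted p was 0.0145 with DESeq2.

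Kcna4, an A-type channel, stood at 17, 17.6, 21.0 and 24.3 CPM in hypoxia and 25.5, 40.8, 22.3 and 23.3 CPM in normoxia. Its log2 change of −0.49 (edgeR adjusted p = 0.224) became −0.24 without normoxia replicate 2, the highest library. Kcna5, a delayed rectifier, had a log2 change of 0.33 (0.50 without normoxia replicate 2, 0.19 without normoxia replicate 1) and Kcnh6, an ERG-type channel, one of 0.28, with edgeR adjusted p of 0.357 and 0.285. Abundant genes of further Kv subfamilies had small changes. Kcnc1 had a log2 change of 0.04 (95% interval −0.10 to 0.18), Kcnd2 −0.08 (−0.36 to 0.19) and the ERG channel Kcnh2 0.08 (−0.06 to 0.21). Without normoxia replicate 2 they were 0.07, 0.07 and 0.05.

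Silent and auxiliary subunits gave no call among 22 tested; 11 had a positive value, 3 had an unadjusted p under 0.05, and the median was −0.01. Kcng4 (ENSMUSG00000045246; mm10 chromosome 8, 119623854 to 119635680, minus strand), a silent partner of delayed rectifier channels, stood at 4.11, 6.40, 4.83 and 6.24 CPM in hypoxia and at 15.5, 6.43, 6.72 and 6.99 CPM in normoxia. Groups did not overlap, by the margin between 6.40 and 6.43 CPM, and normoxia replicate 1 lay far above the rest. With upper-quartile scaling the groups overlapped. The log2 change was −0.73 ± 0.30 (SE; edgeR adjusted p = 0.225) and −0.31 without that library. The same library held the highest sum of 12 thalamic markers, 1049 CPM against 576 to 731 CPM in the other 7. It was also highest for 8 midbrain and hindbrain border markers, 172 CPM against 6.33 to 54.3, and for 10 oligodendrocyte markers, 11846 CPM against 6672 to 10185. Between the groups, 0 of the 12 thalamic, 1 of the 6 tested border and 1 of the 10 oligodendrocyte markers had a positive change. The part of these regions and cells in the result was not tested.

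At lower levels, Kcne4, a subunit that inhibits some Kv channels, had 2.42, 2.61, 2.51 and 1.55 CPM in hypoxia and 1.97, 1.12, 1.44 and 1.23 CPM in normoxia, a log2 change of 0.65 (edgeR adjusted p = 0.176). Hypoxia replicate 4 and normoxia replicate 1 overlapped. Kcng3, another silent subunit, ran from 0.725 to 1.70 CPM in hypoxia and from 0.230 to 0.799 CPM in normoxia; its log2 change of 0.98 ± 0.37 (SE) had an edgeR adjusted p of 0.193. Kcng2 had a log2 change of 0.24. Kcng1 had one of −0.19 with all libraries and of 0.16 without normoxia replicate 2. The abundant auxiliary genes moved little: Kcnab2 had −0.05 (95% interval −0.30 to 0.21; 0.03 without normoxia replicate 2) and Kcnip4, which binds Kcnd2 channels, 0.16 (−0.09 to 0.41; 0.06 without normoxia replicate 2). The silent subunit Kcns2 had −0.04 and Kcnv1, also silent, −0.50 (0.03 without normoxia replicate 2), the latter with 31.1 CPM in normoxia replicate 2, beside 9.13 to 13.7 CPM elsewhere in normoxia. Kcne1l, of the Kcne subunit family, had a log2 change of 0.05 (0.02 without normoxia replicate 2). Kcnrg, a regulator that holds back Kv assembly, had −0.36 at under 1 CPM (−0.14 without normoxia replicate 4).

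Of the 8 genes classed by name with the calcium- and sodium-activated channels, all tested, 4 had a positive value. None was called, and 2 had an unadjusted p under 0.05. Kcnt1, the sodium-activated channel, stood at 204, 207, 216 and 191 CPM in hypoxia and at 167, 188, 175 and 199 CPM in normoxia. The highest normoxia value, in replicate 4, lay above the lowest hypoxia value, and the log2 change was 0.17 ± 0.06 (SE; edgeR adjusted p = 0.192). Kcnn3, a small-conductance channel that shapes the afterhyperpolarization, had 0.17 (95% interval 0.01 to 0.33; edgeR adjusted p = 0.239), and its relative Kcnn2 had −0.19 (−0.04 without normoxia replicate 2). Kcnma1, the large-conductance BK channel, stood at 175, 155, 163 and 170 CPM against 189, 219, 164 and 156 CPM. Its groups overlapped, with a log2 change of −0.14 (−0.36 to 0.09), which was −0.03 without normoxia replicate 2. Kcnu1, a relative of Kcnma1 known from sperm and classed here by its name rather than by what opens it, had 0.02. Kcnn4, the intermediate-conductance channel of blood and immune cells, had the lowest log2 change, −1.09 (−0.60 without normoxia replicate 2), at 0.242 to 0.586 CPM in hypoxia and 0.235 to 1.38 CPM in normoxia (edgeR adjusted p = 0.298). Its highest value was in normoxia replicate 2 and its lowest in normoxia replicate 1, so the normoxia group enclosed the hypoxia group.

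Inward rectifiers had the lowest median of the role classes, −0.27 over 11 tested genes, of which 8 had a negative value. None was called, 1 had an unadjusted p under 0.05, and no gene separated the groups. The median was negative in each of the 19 alternative fits, at −0.14 without normoxia replicate 2. Kcnj9, a G protein-gated channel subunit, stood at 76.9, 65.4, 63.8 and 67.8 CPM in hypoxia and at 98.2, 71.7, 82.8 and 78.1 CPM in normoxia. Only hypoxia replicate 1 lay above the lowest normoxia library. The log2 change was −0.27 ± 0.10 (SE; 95% interval −0.49 to −0.05; edgeR adjusted p = 0.17), or −0.17 without normoxia replicate 1, and the gene overlaps Gm36937 on the opposite strand, so it is uncertain if the counting ignored strand.

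None of the other G protein-gated subunits was called, and differences between the subunits were not tested. Kcnj3 had 61.8, 52.6, 57.8 and 57.6 CPM in hypoxia and 74.3, 115, 59.4 and 55.9 CPM in normoxia, a log2 change of −0.41 that became −0.13 without normoxia replicate 2. Kcnj6 and Kcnj5, named after their values were seen, had −0.21 and 0.16, which became −0.14 and −0.01 without that library. The astrocyte channel Kcnj10 stood at 504, 527, 497 and 471 CPM in hypoxia and at 577, 418, 476 and 469 CPM in normoxia. The hypoxia libraries lay inside the span of the normoxia ones. Its log2 change was 0.04 (95% interval −0.16 to 0.24), or −0.02 without normoxia replicate 2. Kcnj16, which joins Kcnj10 in glial channels and was also named after its values were seen, had 0.08 (−0.08 to 0.23). Summed astrocyte markers were 3492 to 3628 CPM in hypoxia and 3353 to 3641 CPM in normoxia.

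Kcnj2 (ENSMUSG00000041695; mm10 chromosome 11, 111066164 to 111076821, plus strand), a strong inward rectifier of muscle, vessel wall and neurons, was called lower in fits without hypoxia replicate 4. It stood at 12, 11.8, 13.8 and 20.1 CPM in hypoxia and at 17.6, 20.1, 16.9 and 18.0 CPM in normoxia. The first 3 hypoxia libraries lay below all normoxia libraries and hypoxia replicate 4 was level with the highest of them. The log2 change was −0.33 ± 0.16 (SE; edgeR adjusted p = 0.298) with all libraries, −0.53 (adjusted p = 0.0218) without hypoxia replicate 4, and −0.48 (adjusted p = 0.0145) without that library and normoxia replicate 2. Kcnj12, a close relative, had −0.16 (95% interval −0.37 to 0.06; −0.09 without normoxia replicate 1).

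Promoters were looked up for the members that some fit called or whose groups did not overlap, since hypoxia-inducible factors can bind DNA at the letters ACGTG. Only these letters were searched, so a related form such as GCGTG was not counted. The RefSeq table of promoters on GRCm38.p6 (250 bases before to 50 after each start) matched 68 of the 92 members. Of the 5 genes so chosen, Kcnk6 and Kcna1 were not matched, and Kcnq5 had 2 promoters, both with 0 matches to the letters. Kcnj2 and Kcng4 are shown, as the 2 members set out above whose lower values met either criterion. They are given on the strand of the gene, 5′ to 3′, with ACGTG on either strand in capitals. The Kcnj2 promoter (chr11:111065914-111066213, plus strand) holds it as CACGTG, which counts as 2 overlapping matches, 1 on each strand, and that of Kcng4 (chr8:119635631-119635930, minus strand) holds 0.
Kcnj2: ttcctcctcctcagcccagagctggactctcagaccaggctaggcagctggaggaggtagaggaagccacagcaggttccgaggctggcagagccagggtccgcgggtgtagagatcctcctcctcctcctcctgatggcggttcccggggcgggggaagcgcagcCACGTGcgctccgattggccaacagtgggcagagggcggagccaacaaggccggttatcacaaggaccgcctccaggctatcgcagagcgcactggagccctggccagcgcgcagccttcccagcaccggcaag
Kcng4: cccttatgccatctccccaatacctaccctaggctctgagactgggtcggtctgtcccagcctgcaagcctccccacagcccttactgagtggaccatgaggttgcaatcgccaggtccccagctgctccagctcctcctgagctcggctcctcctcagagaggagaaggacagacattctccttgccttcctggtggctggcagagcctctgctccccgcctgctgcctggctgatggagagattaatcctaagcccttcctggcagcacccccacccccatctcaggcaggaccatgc
The letters stood in 16 of the 93 promoters of members (17.2%) and in 19.6% of all 32851 promoters in the table, which have the same length. A match is a description of the letters only.

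Normoxia replicate 2 set the normoxia mean of many members. In it, 18 of the 78 tested members (23.1%) lay over 1.5 times above the mean of the other 3 normoxia libraries, beside 7.29% of all genes, with ratios of 1.58 to 5.97. Among them were Kcna4, Kcnab3, Kcnb2, Kcnf1, Kcng1, Kcnh1, Kcnh3, Kcnh4, Kcnh5, Kcnh7, Kcnip2, Kcnj3, Kcnj4, Kcnk12, Kcnn4, Kcnq5 and Kcnv1, and this library was the highest of the 8 in all 18. Those of them described next, apart from Kcnf1, were named after their values were seen.

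Kcnh3, an ether-a-go-go type channel of forebrain neurons, stood at 26.6, 16.5, 32.5 and 32.7 CPM in hypoxia and at 15.6, 113, 12.2 and 28.9 CPM in normoxia. Kcnj4, a strong inward rectifier of forebrain neurons, had 33.6, 24.5, 42.4 and 45.4 CPM against 16.1, 123, 14.8 and 33.9 CPM. In both genes the second normoxia library alone lay above every hypoxia library. Kcnf1, a silent subunit, had 72.1, 58.2, 69.2 and 71.9 CPM against 54.3, 186, 51.7 and 61.1 CPM. Kcnip2, a KChIP subunit, had 54.3, 53.7, 67.3 and 79.7 CPM against 45.7, 131, 43.4 and 65.4 CPM. Their log2 changes turned from negative with all libraries to positive without normoxia replicate 2. For Kcnh3 the value went from −0.64 to 0.51, for Kcnj4 from −0.36 to 0.75, for Kcnf1 from −0.38 to 0.29 and for Kcnip2 from −0.16 to 0.31. Neither value was called in any of these 4 genes.

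**Figure D4:**
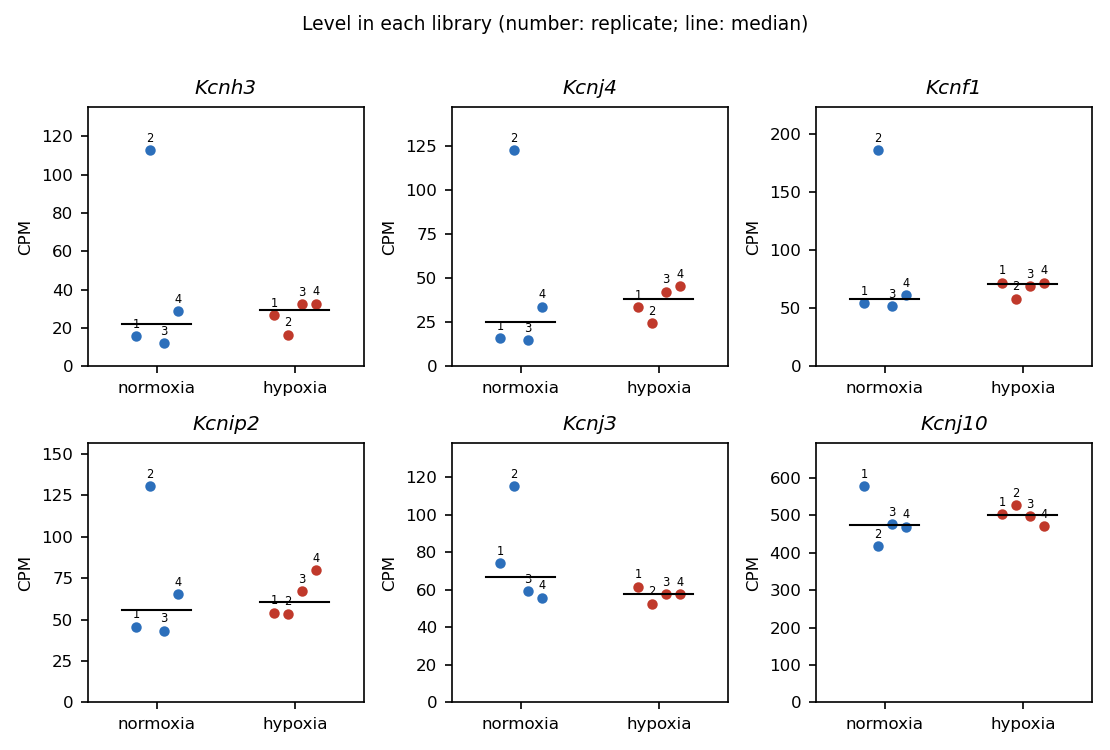
CPM of Kcnh3, Kcnj4, Kcnf1, Kcnip2, Kcnj3 and Kcnj10 in each library (1 numbered point per replicate, n = 4 per group, with the median as a line; axes start at 0). Normoxia replicate 2 is the highest point in the first 5 genes and the lowest in Kcnj10, at 418 CPM.

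Over the 18 genes, 14 had a negative log2 change with all libraries and 3 without normoxia replicate 2, and the median went from −0.26 to 0.15. Since the 18 were chosen for a high value in that library, leaving it out raises them by construction. The other 60 tested members had a median of 0.03 with all libraries and of 0.02 without it. Among all 78, the sign turned in 26 without that library, in 17 from lower to higher, which left 48 positive and 30 negative values. Leaving out normoxia replicate 3 instead moved the balance the other way, to 35 positive and 43 negative values (median −0.04). For 23 members (29.5%, beside 13.9% of all genes) the minimum CPM fell in normoxia replicate 3. Without normoxia replicate 2, Kcnk6, Kcna1 and Kcnq5 were called, all higher. This is 3.85% of the members, where the same fit called 3.91% of all genes. Kcnq5, an M-current subunit, had a log2 change of 0.23 with all libraries and 0.45 without that library (edgeR adjusted p = 0.0461), and 0.14 to 0.45 over the 8 fits that left out 1 library. Slc17a7, the vesicular glutamate transporter of cortical neurons, stood at 384 CPM there, beside 7.92 to 80.3 CPM elsewhere. Of the 11 tested cortical and hippocampal markers, 2 had a positive change between the groups. All 12 striatal markers had one, with sums of 895, 975, 1345 and 1424 CPM in hypoxia and 557, 1328, 589 and 1117 CPM in normoxia. The part of these regions in the members' values was not tested.

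**Figure D5:**
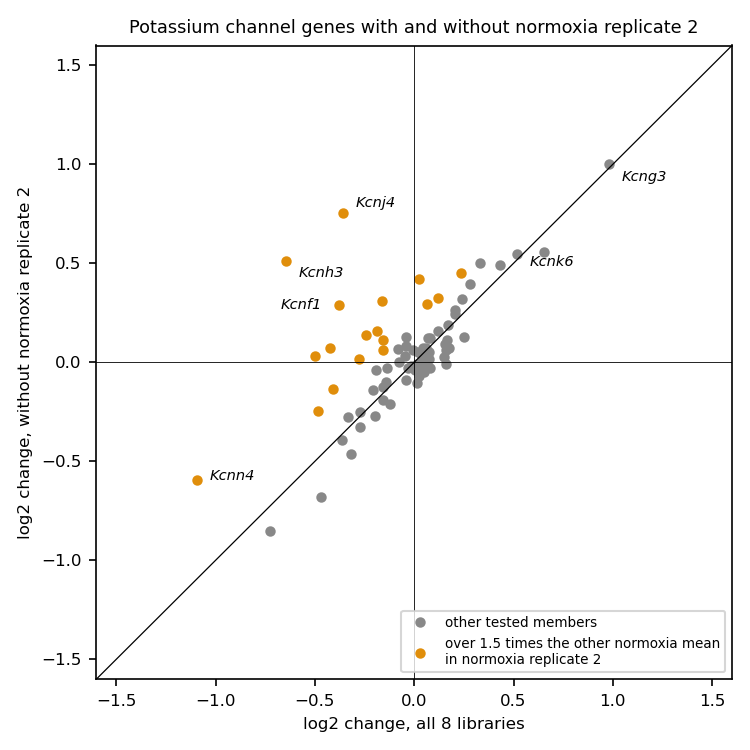
log2 change of the 78 tested members with all 8 libraries (x axis) and without normoxia replicate 2 (y axis), with equal values on the diagonal; orange marks the 18 genes over 1.5 times the other normoxia mean in that library. The orange points lie above the diagonal, with 14 below 0 on the x axis and 3 below 0 on the y axis, and Kcnk6 stays near the line.

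Partners of the channels that are not Kcn genes were read as a list of 33 genes (HCN channels, Kv partner subunits, BK gamma subunits, anchors, potassium pumps and transporters), of which 31 were tested. None was called by edgeR's quasi-likelihood test, 7 (22.6%) had an unadjusted p under 0.05, and the median log2 change was 0.04; DESeq2 called 3. In 5 of the 31 genes (16.1%) the hypoxia libraries lay above all normoxia libraries, and in none below. Among all genes, 13.4% had no overlap (5.69% higher) and 19.3% had an unadjusted p under 0.05; the list's difference from these shares was not tested. Cntnap2, which clusters Kcna1 channels beside the nodes of axons, had 235 CPM in hypoxia and 204 in normoxia, a log2 change of 0.21 (edgeR adjusted p = 0.0673). Adam22, another member of that axonal complex, had 290 and 260 CPM, a log2 change of 0.16 (adjusted p = 0.0719). Hcn4, a pacemaker channel of thalamic neurons, had 20.7 and 27.9 CPM, a log2 change of −0.43 (adjusted p = 0.123). Of the channels left out by the rule, Kcnj8 had a log2 change of 0.98 (edgeR adjusted p = 0.0371) and Kcnj11 one of −0.14 (0.278).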

How the data were processed

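Raw read counts per Ensembl gene were deposited by the authors, 1 column per library, for 4 hypoxia and 4 normoxia libraries of mouse hypothalamus. Per the submitters' processing notes, Trimmomatic, HISAT2 2.0.4, SAMtools, featureCounts and DESeq2 were used with mm10; the annotation release and the strand setting were not given in the sources used here. Of the members, 26 (23 of those tested) have exons that overlap a gene on the opposite strand, and Kcnab2 and Kcnk4 overlap one on the same strand, so these values are uncertain. Positions, exon lengths and overlaps come from GENCODE M21 (GRCm38, the assembly of mm10), which holds 55227 of the 55487 identifiers; 55141 matched a symbol.

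edgeR 4.0.16 (R 4.3.3) was run on the counts: filterByExpr (minimum count 10, minimum total 15) left 17047 genes, libraries were scaled by TMM, and the quasi-likelihood F test had group as its only term. P-values were adjusted by Benjamini-Hochberg over these genes with a threshold of 0.05. The SE is the log2 change divided by the root of F. Replicates within a group had log2 CPM correlations of 0.976 to 0.992 and chi-square values of 4.62 to 37.3 per gene. No library was thus a repeat sequencing of another, but these values cannot show whether libraries shared an animal or pool. Each p sets the group difference against the spread of these 8 libraries only. There were 19 alternatives, with DESeq2 1.42.0, limma-voom (limma 3.58.1), other scalings, filters and forms of the test, a replicate block, and libraries left out.

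The members, lists and rules were chosen with earlier results of these data known. Named genes were those called, the 4 with the smallest p in each role class, the gene with the highest level per kilobase in each subfamily letter, and the 3 partners with the smallest p, 39 genes with 36 members; others are said to be chosen afterwards. Of the named genes, 2 are not reported here.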

Additional observations from a re-analysis of the deposited data

Results flagged for a closer look

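Within the 4 libraries of a group, a value was listed where its gap to the nearest other library was most of the group's range (above Dixon's 95% critical value for 4 samples). Both groups' values of the named genes reported here were looked at, 74 groups in all, of which 6 met the criterion; chance gives about 1 in 20, or 3.7. Of the 6, 3 lay in normoxia replicate 2. In that library Kcnf1 stood at 186 CPM where the other normoxia libraries had 51.7 to 61.1. Kcng2 had 4.25 CPM there against 3.48 to 3.54 CPM, and Kcnh2 was lowest there, at 77.2 CPM against 83.8 to 85.0. Normoxia replicate 1 held the highest Kcng4 value, 15.5 CPM against 6.43 to 6.99 CPM, and the lowest Kcnk2 value, 47.1 CPM against 58.5 to 60.5 CPM. In hypoxia, Kcnn4 was highest in replicate 2, at 0.586 CPM against 0.242 to 0.290 CPM.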

How the results depend on the processing

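The number of members called (1 as reported) was 2 with DESeq2, 0 without the filter on low counts, 0 with a replicate block, 3 without normoxia replicate 2 and hypoxia replicate 4 together, and 0 to 3 when single libraries were left out. For the named members, the same alternatives gave 2, 0, 0, 3 and 0 to 2. Partner genes called (0 as reported) were 3 with DESeq2 and 2 with both libraries out. Members without overlap (3 as reported) numbered 17 with both libraries out, where fewer libraries have to separate, and 4 to 11 with each left out; these are 21.8% and 5.13 to 14.1% of members, beside 30% and 15 to 22% of all genes. Over all genes, 366 calls became 1017 with DESeq2, 21 with the replicate block, 1195 with both libraries out and 26 to 693 with each left out; scaling by library size gave 146 higher and 342 lower genes, in place of 156 and 210. The 7 remaining fits, with other scalings, limma-voom, other forms of the test or a minimum count of 30, kept the count of members called at 1, and it was Kcnk6. Replicate numbers did not pair the libraries: correlations of same-numbered libraries ran from −0.105 to 0.043, and 0 of 8 libraries correlated best with its own number. For single named genes, 697 values kept their direction and side of the threshold, 22 turned their sign without being called in either fit, 10 gained and 9 lost a call, and 0 turned their sign while called. Apart from the fits with fewer libraries or genes, the cause was not tested. Depth limits the 14 untested members and those near 1 CPM, whose intervals reach 1.42 to either side.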
